A study of Mus musculus with 12 samples.

Results

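Intraflagellar transport and BBSome genes encode the machinery that builds the primary cilium and moves membrane receptors in and out of it. Members were the protein-coding genes whose symbol starts with *Ift* or *Bbs* and a number, together with a list of partner genes named by symbol (subunits under other names, motors, small GTPases and *Tulp3*). The same 42 genes met this rule on both diets, of 16438 genes listed on both diets and 13698 protein-coding ones. All 42 had values on both diets, with means from 86.4 to 4271 normalized counts on chow and from 104 to 4438 on the high-fat diet (HFD).

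Hypothalamus RNA was sequenced from 12 male mice, 3 in each of 4 groups. Both WT (+/+) and *Gpr75-/-* mice, on a C57BL/6J background, were fed chow or were given a HFD from the age of 6 weeks and were studied 2 weeks later. GPR75 is a G protein-coupled receptor, and the question was how its loss bears on the hypothalamus, which controls feeding. The *Gpr75-/-* allele, made with CRISPR/Cas9 in the germline, shifts the reading frame near the start of the protein, so every cell of the mouse carries it and mRNA can still be made. The level of *Gpr75* mRNA therefore does not check the genotype labels: it was 311 normalized counts in WT and 456 in *Gpr75-/-* mice on chow, and 399 and 370 on the HFD. The values used are 1 mean per gene and genotype on each diet, without the authors' own comparison of the genotypes, so no spread between mice and no test between genotypes enters here. Mean normalized counts summed to 18280462 on chow and 19420111 on the HFD, the depth of an average mouse after scaling; the depth of each mouse was not analysed here.

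Intraflagellar transport (IFT) carries cargo along the microtubules of the cilium in trains made of the IFT-A and IFT-B complexes, outward by kinesin-2 and back by cytoplasmic dynein 2. The BBSome is a coat-like complex that rides these trains and removes receptors from the cilium, and loss of its subunits causes Bardet-Biedl syndrome, in which obesity is a leading sign. In hypothalamic neurons several receptors for feeding signals sit in the cilium, and TULP3 with IFT-A brings many of them in.

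Levels between genes were compared per kilobase of the longest annotated transcript, with the diet's total scaled to 1000000 normalized counts. On this scale the members spanned 38.1-fold on chow, from 1.94 for *Bbs12* to 73.9 for *Kif3a*, and 32.9-fold on the HFD. Their median was 9.82 on chow and 10.1 on the HFD, beside 8.10 and 8.03 for all protein-coding genes. The level of 25 members on chow and 26 on the HFD was above that of the median protein-coding gene. The order of the members was close to the same on both diets (Spearman rho across the 42 genes 0.992, a description). No spread between mice was used, so which neighbors in this order differ is not said.

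**Figure D1:**
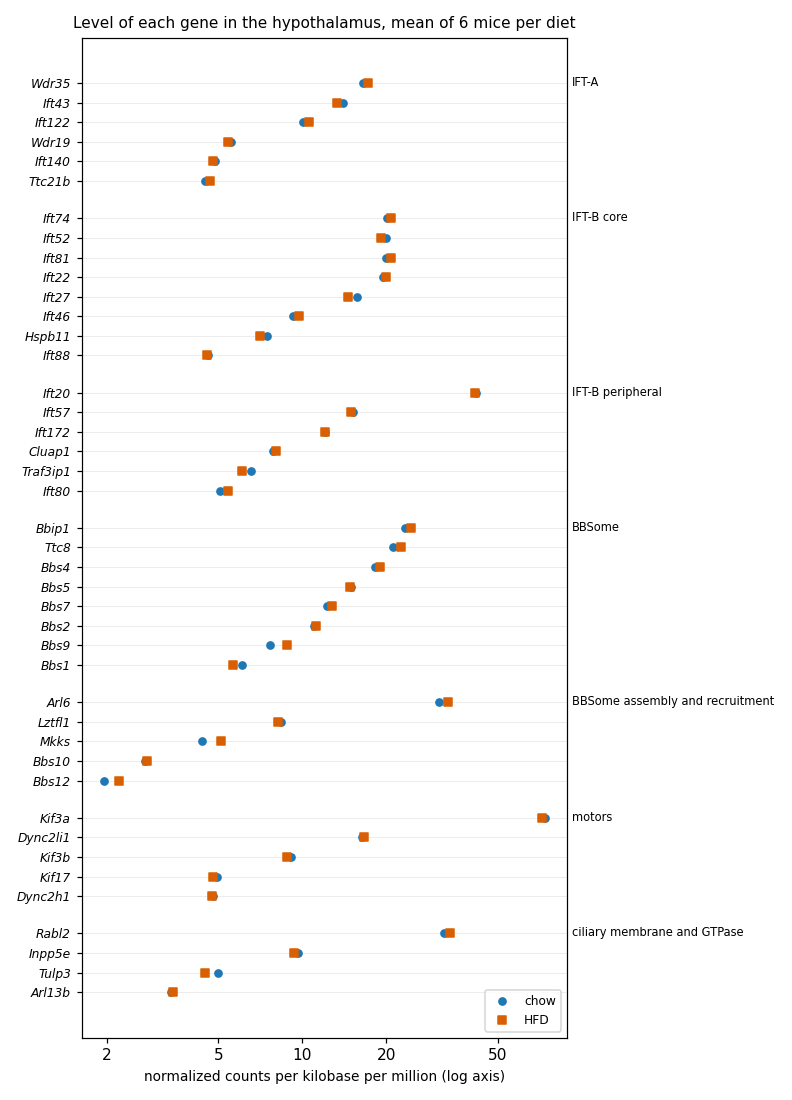
Level of the 42 genes by role, in normalized counts per kilobase of transcript with each diet's total scaled to 1000000, on a log axis, with the mean of 6 mice on chow (circles) and on the HFD (squares). *Kif3a* is farthest to the right at 73.9 on chow and *Bbs12* farthest to the left at 1.94.

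Among the 6 IFT-A genes, *Wdr35* had the highest level per length, 16.5 on chow and 17.2 on the HFD, and *Ttc21b* the lowest, 4.49 and 4.67. Among the 8 IFT-B core genes, *Ift74*, whose protein pairs with IFT81, led at 20.02 on chow, with *Ift52* and *Ift81* close behind and *Ift22* at 19.4. On the HFD *Ift81* and *Ift74* were both at 20.7. *Ift88*, a core gene whose loss stops cilia from forming, was lowest in that role at 4.60 and 4.56. This order rests on the longest transcript, 4226 bases for *Ift88* and 2139 for *Ift74*. Their median transcripts have 686 and 1713 bases, and per median length *Ift88* would lie above *Ift74* on both diets. Of the 6 peripheral IFT-B genes, *Ift20*, whose protein also sits at the Golgi, was at 41.8 on chow and 41.4 on the HFD. *Ift80* was lowest there at 5.07 and 5.42.

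The 8 BBSome subunits lay within 3.84-fold on chow and 4.33-fold on the HFD, beside 3.68-fold on each diet for IFT-A. *Bbip1*, the smallest subunit, was at 23.4 on chow and 24.5 on the HFD, and *Bbs1*, which contacts ARL6, at 6.08 and 5.66. The genes that assemble or recruit the BBSome spread over 15.9-fold on chow. *Arl6*, the GTPase that brings the complex to membranes, was at 30.9 on chow and 33.2 on the HFD. The chaperonin-like genes *Mkks*, *Bbs10* and *Bbs12*, which help assemble the complex, were at 4.37, 2.73 and 1.94 on chow, each below every BBSome subunit. Of the motors, *Kif3a*, a kinesin-2 subunit that also works in axons, stood far above *Kif3b* at 9.10 on chow, and *Dync2h1*, the heavy chain of dynein 2, was lowest at 4.79. Among the 4 ciliary membrane and GTPase genes, *Rabl2* was highest at 32.1 on chow and *Arl13b*, a GTPase of the ciliary membrane, lowest at 3.38. *Tulp3* was at 4.99 on chow and 4.48 on the HFD, which are percentiles 36.1 and 33.5 of protein-coding genes.

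The diets were normalized separately, so their levels are only set side by side. The ratio of HFD to chow levels, each as a share of the diet's total, had a median of 1.013 over the members and 1.0 over 15475 genes with a mean of at least 30 on both diets. It ranged from 0.898 for *Tulp3* to 1.18 for *Mkks*, with *Bbs9* at 1.15 and *Bbs12* at 1.13.

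The genotypes were compared within each diet to ask whether transport genes of the cilium differ in mice without GPR75. On chow, 22 members were higher in *Gpr75-/-* mice, 14 were lower and 6 had equal means as deposited (52.4%, 33.3% and 14.3%), beside 43.7%, 41.2% and 15.1% of all genes with a mean of at least 30. The median log2 difference (*Gpr75-/-* minus WT) was 0.03, beside 0.00 over those genes. Higher by over 1.1-fold was 1 member, *Ift122*, beside 14.1% of 15653 genes, and lower by as much were 0 members, beside 14.4%. On the HFD, 23 members were higher, 7 lower and 12 equal (54.8%, 16.7% and 28.6%), beside 47.0%, 35.2% and 17.8% of all genes. The median log2 difference was 0.03 beside 0.00. Past 1.1-fold were 3 members, all higher (*Ift43*, *Bbs9* and *Mkks*), beside 13.8% of 15744 genes, and 0 lower, beside 10.5%. The shares of members past this fold in either direction, 2.38% on chow and 7.14% on the HFD, were below each of these 1-way shares of all genes. The members' means start at 86.4, and the all-gene shares fall with level. At a mean of at least 100 they were 10.1% higher and 10.7% lower on chow, and 9.31% and 7.57% on the HFD. Over all members, log2 differences ran from -0.11 to 0.18 on chow and from -0.11 to 0.22 on the HFD.

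The group means were deposited with 2 decimals on a doubly logarithmic scale, so a log2 difference carries a rounding range of about 0.04 either way, and 0.06 for *Kif3a*. A difference whose rounding range leaves out 0 was seen in 14 members higher and 5 lower on chow, and in 10 higher and 5 lower on the HFD. On chow these are 33.3% and 11.9% of the members, beside 30.1% and 29.3% of all genes. On the HFD they are 23.8% and 11.9%, beside 32.0% and 23.4%. The rounding range is not an error between mice. Fewer cells of a type and less RNA per cell cannot be told apart in this bulk tissue.

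**Figure D2:**
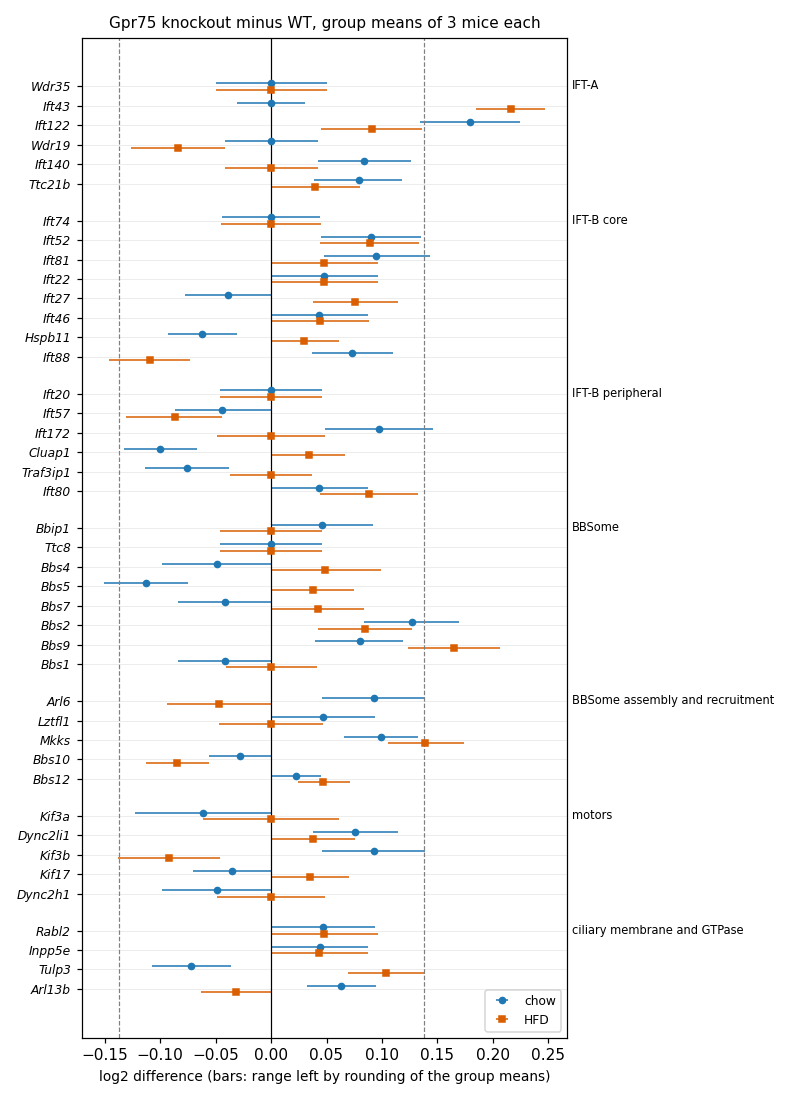
Log2 difference of the group means, *Gpr75-/-* minus WT, for each of the 42 genes by role on chow (circles) and the HFD (squares), with 3 mice in each group. Bars give the range left by rounding, not an error between mice, and dashed lines mark a fold of 1.1; *Ift43* on the HFD, at 0.22, is the gene whose whole range lies past them.

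*Ift122* (ENSMUSG00000030323, chromosome 6, 115830431 to 115903660, GRCm39), a core IFT-A subunit, had 765 normalized counts in WT and 866 in *Gpr75-/-* mice on chow. That is 1.13-fold, with a rounding range from 1.097 to 1.17. On the HFD it had 879 and 936, with a log2 difference of 0.09. *Ift43* (ENSMUSG00000007867, chromosome 12, 86129315 to 86209233), a small IFT-A subunit, had 200 normalized counts in WT and 232 in *Gpr75-/-* mice on the HFD, 1.16-fold with a range from 1.14 to 1.19. Its means were equal on chow, at 214. The other IFT-A genes showed no common direction on the HFD: *Wdr19* was at 680 in WT and 641 in *Gpr75-/-* mice, while *Wdr35* and *Ift140* had equal means. On chow 3 of the 6 were higher and 3 equal.

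IFT-B core genes were higher in 5 and lower in 2 of 8 on chow, and in 6 and 1 on the HFD. The median log2 difference was 0.05 on each diet. A rounding range that left out 0 was seen in 3 higher and 1 lower on chow (37.5% and 12.5%, beside 30.1% and 29.3%). On the HFD it was seen in 2 higher and 1 lower (25.0% and 12.5%, beside 32.0% and 23.4%). *Ift52* differed by 0.09 on both diets. *Ift88* turned: it had 346 normalized counts in WT and 364 in *Gpr75-/-* mice on chow, and 388 and 360 on the HFD. Of the 6 peripheral genes, 2 were higher and 3 lower on chow, and 2 and 1 on the HFD. *Ift172* was higher on chow, at 0.10, with equal means on the HFD, and *Ift80* was higher on both diets, at 0.04 and 0.09. *Ift57* was lower on both diets, at -0.04 and -0.09, with a rounding range that reaches 0 on chow. *Cluap1* was at 264 in WT and 246 in *Gpr75-/-* mice on chow and at 274 and 280 on the HFD, and *Ift20* had equal means on both diets.

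Symbols beginning with *Ttc* left some IFT-B core genes outside the rule. *Ttc26* (IFT56), *Ttc30a1* and *Ttc30b* (both IFT70) were looked up after the data were seen. On chow *Ttc26* had 258 normalized counts in WT and 297 in *Gpr75-/-* mice, and *Ttc30a1* 163 and 196. These are log2 differences of 0.20 and 0.27, both past the 1.1-fold used for the members, and *Ttc30b* was at 0.12. On the HFD the values were 0.03, 0.06 and 0.04. *Ttc30a2*, at a mean of 25.7, was listed on the HFD alone, with a log2 difference of 0.36 or 1.28-fold. The *Ttc30* genes are near-identical copies, so reads may have been counted for the wrong copy and these values are uncertain.

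BBSome subunits were higher in 3 and lower in 4 of 8 on chow, and higher in 5 with 3 equal on the HFD. A rounding range that left out 0 was seen in 2 higher and 1 lower on chow (25.0% and 12.5%, beside 30.1% and 29.3% of all genes). On the HFD it was seen in 2 higher and 0 lower (25.0% and 0%, beside 32.0% and 23.4%). *Bbs9* (ENSMUSG00000035919, chromosome 9, 22387011 to 22799576), a scaffold subunit, had 476 normalized counts in WT and 503 in *Gpr75-/-* mice on chow, and 565 and 633 on the HFD. The HFD difference is 1.12-fold, with a rounding range from 1.09 to 1.15. *Bbs2* was higher on both diets, by 0.13 and 0.08 in log2. *Bbs5* was at 416 in WT and 385 in *Gpr75-/-* mice on chow, and at 416 and 427 on the HFD. *Mkks* (ENSMUSG00000027274, chromosome 2, 136715700 to 136733309) had 245 and 262 normalized counts on chow and 301 and 332 on the HFD. The latter is 1.101-fold, with a range from 1.08 to 1.13 that straddles the 1.1-fold used. *Bbs10*, its relative, was lower on both diets, at -0.03 and -0.08, the former 1 step of the rounding with a range that reaches 0.

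Motor genes had log2 differences between -0.06 and 0.09 on chow and between -0.09 and 0.04 on the HFD. *Kif3b* turned, with 907 normalized counts in WT and 968 in *Gpr75-/-* mice on chow and 991 and 930 on the HFD. *Kif3a* was at 4362 and 4181 on chow, 1 step of the rounding apart, and at equal means of 4438 on the HFD. *Tulp3* (ENSMUSG00000001521, chromosome 6, 128298124 to 128332814), whose protein links IFT-A to receptors bound for the cilium, also turned. It had 339 normalized counts in WT and 323 in *Gpr75-/-* mice on chow, and 304 and 327 on the HFD. Its log2 differences were -0.07 and 0.10, and whether they differ between the diets was not tested.

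Each diet had its own WT mice, so the differences of the diets share no control. Of the 42 members, 14 were higher on both diets, 2 were lower on both, 12 had opposite directions and 14 had equal means on at least 1 diet. Over 15475 genes with a mean of at least 30 on both diets, 22.7% were higher on both, 17.2% lower on both and 30.7% opposite, beside 33.3%, 4.76% and 28.6% of the members. The members higher on both were *Ift122* and *Ttc21b* of IFT-A, *Ift22*, *Ift46*, *Ift52*, *Ift81* and *Ift80* of IFT-B, *Bbs2* and *Bbs9* of the BBSome, *Bbs12*, *Mkks*, *Dync2li1*, *Inpp5e* and *Rabl2*. Many of these directions rest on 1 step of the rounding. Among the members higher on both, only *Ift122*, *Ift52*, *Bbs2*, *Bbs9* and *Mkks* had a rounding range that left out 0 on both diets. *Bbs10* and *Ift57*, lower on both, had a range that reaches 0 on chow.

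Other genes of the cilium came from lists of their own. Of all genes with a mean of at least 30, 43.7% were higher and 41.2% lower on chow, and 47.0% and 35.2% on the HFD. Of 17 transition zone genes, which gate the cilium, 9 were higher and 5 lower in *Gpr75-/-* mice on chow, and 8 and 7 on the HFD. Basal body and assembly genes were lower in 7 of 9 on chow (77.8%) and 4 of 9 on the HFD (44.4%), and 2 were higher on each diet. Past the rounding, 1 was higher and 5 lower on chow, and 2 and 4 on the HFD. The shares lower past it were 55.6% and 44.4%, beside 29.3% and 23.4% of all genes. *Cep97*, whose protein caps the centriole, was at 455 in WT and 378 in *Gpr75-/-* mice on chow and at 418 and 341 on the HFD. Further transport genes were higher in 3 and lower in 2 of 6 on chow, and higher in 2 and lower in 3 on the HFD. *Kifap3*, the partner of KIF3A and KIF3B, had equal means on both diets. Ciliary signalling genes were higher in 5 and lower in 4 of 10 on chow, and higher in 7 and lower in 4 of 11 on the HFD. That list holds *Gpr75* itself, the 1 gene of it higher past 1.1-fold on chow. Lower past that fold on chow were 3, *Drd1* at -0.646, *Mchr1* at -0.181 and *Adcy3* at -0.138. The deposited means and the mean count of *Drd1* were not on 1 scale there. On the HFD 3 were higher and 2 lower past that fold. Of the 7 transcription factors of cilia genes, 3 were higher and 3 lower on chow, and 4 and 3 on the HFD. Over these 5 lists the median log2 difference was 0.00 on each diet, and past 1.1-fold were 3 genes higher and 8 lower on chow (6.12% and 16.3%, beside 14.1% and 14.4% of all genes), and 7 higher and 6 lower on the HFD (14.0% and 12.0%, beside 13.8% and 10.5%).

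Cells with many motile cilia use the same transport genes. All 15 markers of ependymal cells were listed, and their summed normalized counts were 2577 in WT and 2680 in *Gpr75-/-* mice on chow and 2747 and 2703 on the HFD, with *Ccdc39* most abundant. Without *Ccdc39* the sums were 1964 and 2102 on chow and 2114 and 2052 on the HFD. On chow 8 of the 15 were higher, 6 lower and 1 equal, and on the HFD 7 were higher and 8 lower. Past 1.1-fold on chow were 5 higher and 1 lower (33.3% and 6.67%, beside 14.1% and 14.4% of all genes). On the HFD 3 were higher past that fold and 4 lower, the latter 26.7%, beside 10.5%. Log2 differences on chow ran from -0.329 for *Dnah9* to 0.797 for *Tekt4*, the latter at a mean of 41.65. Both are larger in size than the difference of any member. *Foxj1* is in this list and among the transcription factors. All 7 choroid plexus markers were listed on chow, *Ttr* being most abundant at a mean of 2910 over both genotypes. The 5 with deposited means above 0 in both genotypes were higher in *Gpr75-/-* mice, with log2 differences of those means of 1.21 for *Ttr*, 1.26 for *Kl*, 1.11 for *Folr1*, 0.41 for *Otx2* and 0.39 for *Clic6*, each larger than that of any member. For *Kcnj13* and *Aqp1* the deposited mean was 0 in WT, the lowest value in the tables and not an absence of RNA on this scale, and 1.13 and 0.94 in *Gpr75-/-* mice. For *Ttr*, *Kl*, *Folr1* and *Otx2* the deposited group means and the mean count were not on 1 scale, so counts per genotype are not given. Their mean counts lay above the level of the deposited means by 4.21, 0.91, 0.72 and 0.12 in log2. The log2 differences of these genes thus describe the deposited means alone, and the source of this gap was not tested. *Clic6* was at 405.5 in WT and 530 in *Gpr75-/-* mice. On the HFD 4 of 7 were listed, with 2 higher (*Kl* at 0.16 and *Clic6* at 0.11) and 2 lower (*Ttr* at -1.41 and *Otx2* at -0.30). Without *Ttr*, at a mean of 48.5 and again off the common scale, they summed to 613.5 in WT and 639 in *Gpr75-/-* mice, and *Clic6* was most abundant. Oligodendrocyte markers were lower in 7 of 7 on both diets, with sums of 125217 and 113061 on chow and 144727 and 126405 on the HFD, *Mbp* being most abundant. The part of these cells in the members' differences was not tested. The tissue label was met by hypothalamic genes, of which 12 of 12 were listed, with *Pmch* most abundant; they summed to 13429 in WT and 14036 in *Gpr75-/-* mice on chow, where 8 were higher and 4 lower, and to 14243 and 17329 on the HFD. On the HFD 11 of the 12 were higher and 1 was equal, 9 of them past 1.1-fold, at a median log2 difference of 0.35. Neuronal markers summed to 77306 and 74809 on chow, where *Snap25* differed by 1 step of the rounding and the other 4 had equal means. On the HFD they summed to 77205 and 76067, with 1 higher, 2 lower and 2 equal. Astrocyte markers summed to 31352 and 32409 on chow, microglial ones to 3857 and 3742, endothelial ones to 2926 and 2759, and the tanycyte markers *Col23a1* and *Adm* to 270.1 and 289. The tanycyte marker *Crym*, off the common scale on chow, had a log2 difference of -1.02 there, so 1 of the 3 listed was higher (*Col23a1*, 0.16) and 2 were lower. On the HFD these sums were 36630 and 36887, 4153 and 3965, 2964 and 2797, and, for 3 tanycyte markers, of which 1 was higher and 2 lower, 407.5 and 383. Without *Col23a1*, higher there by 0.10, the HFD tanycyte sums were 135.5 and 91.5. *Crym* was at -0.454 and *Adm* at -0.685 on the HFD, each larger in size than the difference of any member. Endothelial markers were lower for 4 of 4 on both diets, 3 of them past the rounding on each. Microglial markers were lower for 5 of 5 on the HFD, 2 of them past the rounding (40.0%, beside 23.4% of all genes). On chow 1 microglial marker was higher, 2 were lower and 2 equal. No astrocyte marker was lower, with 3 of 5 higher on chow and 2 of 5 on the HFD and the others equal. The shares higher were 60.0% and 40.0%, beside 43.7% and 47.0% of all genes.

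The members lie on 16 chromosomes, with at most 6 on 1 chromosome (chromosome 2), and none overlaps another. The span of 12 members overlaps another listed gene, of 8 a protein-coding one. *Mkks* overlaps *Slx4ip*, *Bbs9* overlaps *Gm16165* and *Tulp3* overlaps *Gm44190*; whether the counting used strand is not given in the sources used here, so reads of such pairs may not be told apart.

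RFX transcription factors are known regulators of cilia genes and bind the X-box, so promoters were searched for its letters, a feature the choice of members did not use. RefSeq promoters (GRCm38.p6, 250 bases before to 50 after a gene's start) matched 38 of the 42 members by symbol, all but *Dync2li1*, *Ift122*, *Ift80* and *Ift81*. The core motif GTTGCC, on either strand, was in a window of 15 of the 38 members (39.5%), beside 14.1% of 27025 genes and 15.2% of 10858 protein-coding genes listed on both diets. The whole X-box, GTTNCC and GGNAAC with 1 to 3 bases between them, was in 3 members (7.89%), beside 0.903% of the 27025 genes. In the 24 genes of the transition zone and basal body lists with a promoter, the core was in 13 (54.2%) and the whole X-box in 4 (16.7%), larger shares than in the members. Members with the core had a median log2 difference of -0.04 on chow and 0.00 on the HFD, and those without it 0.04 on both. None of these medians is larger than the rounding range of about 0.04 either way, so no difference by motif is read from them. A match is a description of the letters and shows no binding.

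The members with a whole X-box are shown because they hold the feature in full, with the X-box in capitals, and *Kif3a* and *Ift88* as the top motor gene and an IFT-B core gene with the core motif alone. *Bbs7* is at chr3:36613490-36613517 on the minus strand, *Ift57* at chr16:49699226-49699253 on the plus strand and *Lztfl1* at chr9:123717769-123717796 on the minus strand. *Kif3a* is at chr11:53567260-53567287 and *Ift88* at chr14:57424081-57424108, both on the plus strand (all GRCm38.p6, which differs from the build of the gene positions above).
Bbs7: cgccccgGTTGCCTTGGAAACcggccag
Ift57: gccctgcgGTTGCCTGGTAACggtgggg
Lztfl1: tttctctGTTGCCATTGGCAACggcagg
Kif3a: accccgcaggcGTTGCCccagtctagcg
Ift88: gagtcgcgcctGGCAACggctgggcgtc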

How the data were processed

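Hypothalamus libraries of 12 mice were made by the authors with a SMART-Seq mRNA kit. The submitters' notes name STAR, featureCounts, StringTie, DESeq2 and the build GRCm39, and the study ran DESeq2 per diet; the annotation release is not given in the sources used here. For each diet the authors deposited 1 table. Its signal is the authors' mean normalized count over 6 mice. The deposited mean of each genotype is the log2 of a log2 level, to 2 decimals: for most genes 2 to its power was the log2 of the mean count less a constant (3.21 on chow and 3.29 on the HFD, 5th to 95th percentile 3.19 to 3.24 and 3.27 to 3.32). Off it by over 0.1 were 69 genes on chow (0.441%) and 60 on the HFD (0.381%), among them *Ttr*; all 42 members were off it by at most 0.022. The authors' comparison columns, which hold fold changes, standard errors, statistics and p-values, were not used, and 0 other columns of single mice were left aside.

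From these, the log2 difference was the difference of 2 to the power of each deposited mean, its range came from moving each mean by its rounding, and the mean count was split between genotypes in that ratio, except for genes off the constant by over 0.1, a limit set after the data were seen. Whether the deposited means were shrunken could not be told. Tests on counts of single mice had been planned and could not be run on these values. Background genes had a mean of at least 30. Transcript lengths came from GENCODE vM21 by Ensembl identifier, for all 42 members and 99.8% of genes on chow. Named genes were, in each role, those with the highest and lowest level per length and those past 1.1-fold, and *Tulp3*; others were chosen after their values were seen. Members and lists were chosen with earlier results of these data known. Steps were tested on simulated data. Python 3.11.15, numpy 2.4.6, pandas 2.3.3, scipy 1.17.1 and matplotlib 3.10.9 were used.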

Additional observations from a re-analysis of the deposited data

How the results depend on the processing

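With a lower fold (a log2 difference of 0.07) in place of 1.1-fold, 17 members (40.5%) were past the fold on chow and 14 (33.3%) on the HFD, beside 54.0% and 49.2% of all genes with a mean of at least 30. With a fold of 1.2, 0 were on either diet, beside 9.65% and 7.29% of all genes. Counting members whose whole rounding range lay past 1.1-fold, chosen after seeing the data, left 0 on chow and 1 on the HFD (*Ift43*, 2.38%), beside 20.9% and 18.0% of all genes. Centring on the median of all genes changed neither count, since that median was 0 on both diets. The median difference of the members moved by less than the rounding range, used in place of the spread between mice, when centred, with a mean of at least 100, and with the *Ttc26* and *Ttc30* genes added after seeing the data. The background shares stayed within 1.5-fold with protein-coding genes alone (11.8% and 12.3% on chow, 11.0% and 9.68% on the HFD) and, chosen after seeing the data, with a mean of at least 100 (10.1% and 10.7%, 9.31% and 7.57%). The count of members with 1 direction on both diets was 16, and 15 with a mean of at least 100. Without division by length, 5 of the first 10 members by level stayed among the first 10 on each diet. With the median transcript length 8 did on chow and 7 on the HFD. The highest and lowest genes named within roles hold for the longest transcript. Some change with the median length, among them *Wdr35*, *Ift74*, *Ift88* and *Dync2h1*. In the last 150 bases of the promoter window the core motif was in 12 members (31.6%) and the whole X-box in 2 (5.26%), beside 8.03% and 0.662% of all genes.

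No paired analysis was possible because the values used are group means, which carry no replicate number. Leaving out each mouse, the replicate block, edgeR against DESeq2 and no filter on low counts were not run for the same reason. The authors' comparison columns, which hold standard errors, were not used, so the differences are not set beside the spread between mice, and what depth limits was not tested.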
